A study of Mus musculus with 721 samples.

Results

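The 10 genes Gadd45a, Btbd17, Amotl2, Cbfa2t3, Ppp1r14a, Smarcd2, Mfap4, Gpx2, Pla2g2f and Serinc2 were followed across single cells of the embryonic mouse pancreas. They are 10 of 32806 genes measured, and all 10 were found by symbol in the gene table. They were selected on measured values of these same cells, because their level went with that of Neurog3 and was lower in cells with Fev or a hormone. Their levels against Neurog3, Fev and the hormones are therefore given as a description with no test, while day and run within cells of one state were tested.

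The cells came from pancreata of mouse embryos that carry a Neurogenin 3-eGFP reporter, and single eGFP-positive cells were sorted into wells of 96-well plates. The labels give no other genotype, strain, sex or treatment, do not name the animals and do not say how the reporter was built. Embryonic days E11.5 and E12.5 were sequenced in run 1, and E13.5, E14.5 and E15.5 in run 1 and run 2, which gave 8 sets of cells. The floor was 100000 fragments and 1500 genes at 1 FPKM for a cell, which 658 of 721 cells met. FPKM, fragments scaled by transcript length and by depth, is a level per length, so levels can be set side by side between genes.

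Neurog3 is a basic helix-loop-helix transcription factor that is made for a short time in the progenitors of all islet cells, and without it the mouse pancreas forms no endocrine cells. As Neurog3 falls, the ETS factor Fev appears in precursors, and later the cells make insulin, glucagon, somatostatin, ghrelin or pancreatic polypeptide. A cell was called Neurog3-only when Neurog3 was at 10 FPKM or more, Fev under 10 FPKM and each of 6 hormone genes (Ins1, Ins2, Gcg, Sst, Ghrl and Ppy) under 100 FPKM. There were 163 Neurog3-only cells. A further 79 cells had Neurog3 and Fev without a hormone, 64 had Neurog3 and a hormone, 60 had Fev only, 118 had a hormone without Neurog3, and 174 had none of these.

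Basic helix-loop-helix factors bind E-boxes, whose letters are CANNTG on both strands. The promoters of 6 of the 10 genes are shown for that reason, as 250 bases before and 30 bases from the RefSeq start on GRCm38, 5′ to 3′ on the gene's strand, with each CANNTG in capitals. Gadd45a stands for a promoter with 1 E-box, Cbfa2t3, Gpx2 and Pla2g2f for promoters with the form CAGATG or its other strand CATCTG, Smarcd2 for E-boxes of other forms only, and Amotl2 for a window with none.
Gadd45a, chr6:67037378-67037657, minus strand: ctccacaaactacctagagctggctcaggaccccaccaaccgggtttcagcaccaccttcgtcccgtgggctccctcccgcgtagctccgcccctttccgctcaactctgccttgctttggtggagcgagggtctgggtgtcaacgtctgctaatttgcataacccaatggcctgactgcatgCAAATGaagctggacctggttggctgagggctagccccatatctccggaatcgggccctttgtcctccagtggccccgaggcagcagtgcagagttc
Cbfa2t3, upstream start, chr8:122699080-122699359, minus strand: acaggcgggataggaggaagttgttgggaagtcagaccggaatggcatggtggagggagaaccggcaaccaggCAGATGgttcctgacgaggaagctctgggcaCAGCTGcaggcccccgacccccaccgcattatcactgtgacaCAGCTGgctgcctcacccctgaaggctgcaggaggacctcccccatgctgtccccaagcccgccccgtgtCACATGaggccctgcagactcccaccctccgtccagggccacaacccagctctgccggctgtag
Gpx2, chr12:76795525-76795804, minus strand: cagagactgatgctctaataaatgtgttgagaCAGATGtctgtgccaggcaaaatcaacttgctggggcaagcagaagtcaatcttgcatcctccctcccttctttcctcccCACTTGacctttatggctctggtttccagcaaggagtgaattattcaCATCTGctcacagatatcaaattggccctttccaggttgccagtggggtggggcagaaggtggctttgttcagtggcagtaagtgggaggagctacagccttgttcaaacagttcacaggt
Pla2g2f, chr4:138757569-138757848, minus strand: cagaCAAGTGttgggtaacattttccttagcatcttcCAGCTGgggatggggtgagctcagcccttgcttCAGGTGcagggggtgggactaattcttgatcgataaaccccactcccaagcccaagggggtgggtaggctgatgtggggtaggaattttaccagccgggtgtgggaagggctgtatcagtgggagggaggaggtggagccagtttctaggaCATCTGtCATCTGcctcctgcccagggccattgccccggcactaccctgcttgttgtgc
Smarcd2, chr11:106267603-106267882, minus strand: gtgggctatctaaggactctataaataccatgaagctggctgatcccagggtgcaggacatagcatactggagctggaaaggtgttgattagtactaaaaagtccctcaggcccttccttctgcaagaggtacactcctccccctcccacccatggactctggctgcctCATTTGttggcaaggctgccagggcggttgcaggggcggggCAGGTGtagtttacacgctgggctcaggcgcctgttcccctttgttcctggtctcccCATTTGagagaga
Amotl2, chr9:102717554-102717833, plus strand: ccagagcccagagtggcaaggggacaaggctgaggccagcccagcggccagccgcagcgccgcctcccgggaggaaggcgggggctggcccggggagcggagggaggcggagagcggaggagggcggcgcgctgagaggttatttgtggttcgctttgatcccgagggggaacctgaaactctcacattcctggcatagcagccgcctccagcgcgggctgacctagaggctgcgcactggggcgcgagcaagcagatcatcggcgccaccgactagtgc

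RefSeq promoters were found for 9 of the 10 genes; Mfap4 is named only. The 9 genes have 12 promoters in that table. CANNTG occurred in the 280-base windows of 10 of these 12 promoters and in 70.1% of 32851 RefSeq promoters. CAGATG, or CATCTG on the other strand, occurred in 6 of the 12 promoters, which belong to 5 genes (Cbfa2t3, Ppp1r14a, Gpx2, Pla2g2f and Serinc2), and in 16.1% of all promoters. Pla2g2f held it at 29 and 22 bases before its RefSeq start, and Gpx2 at 218 and 91 bases before its RefSeq start. The RefSeq start of Pla2g2f is at base 138757598, and that of its isoform Pla2g2f-201 is further upstream, at base 138757626. The matches of Pla2g2f thus lie at or past the start of that isoform. CATATG occurred in 0 of the 12 promoters and 3.76% of all promoters, and CAGCTG in 3 of the 12 (of Cbfa2t3, Pla2g2f and Serinc2) and 14.9% of all promoters. These 3 forms are all CANNTG, so their counts overlap with the first. Some of the 12 promoters were little used: CAGCTG of Serinc2 lay only at the start of Serinc2-203, an isoform with 2.41% of the gene's FPKM in Neurog3-only cells. A further Serinc2 promoter with CAGATG lay more than 100 bases from the start of each of its isoforms. A match is a run of letters in a window; binding was not measured.

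The depth of the 658 cells ran from 101675 to 1990000 fragments (median 587177), and the median was 595542 in Neurog3-only cells, 583600 in Fev-only cells and 618476 in hormone cells. Among Neurog3-only cells, 92 of 163 had 3 or more of 7 endocrine markers (Neurog3, Neurod1, Chga, Chgb, Pax6, Isl1 and Fev) and 37 had 3 or more of 4 duct or trunk markers. Markers of endothelium, mesenchyme and erythroid cells reached 3 in 0 cells of this state. Acinar or tip markers reached 3 in 8 cells and leukocyte markers in 1 cell. The early sets stood apart: 1 of 6 Neurog3-only cells at E11.5 had leukocyte markers, and 2 of 6 at E11.5 and 3 of 7 at E12.5 had acinar or tip markers. Beside these markers, in the set E12.5 run 1, 5 of the 7 Neurog3-only cells had 3 or more of 10 cell cycle genes at 10 FPKM or more, and their mean Neurog3 level was 46.5 FPKM, against 306 FPKM at E11.5 and 1261 to 2933 FPKM from E13.5. Genes with transcripts above 54.3% GC made up 19.7% of detected genes in E12.5 run 1 and 21.5% in E13.5 run 1 (medians over cells), against 22.96% to 25.6% in the other 6 sets. By their share of the FPKM of coding genes, E12.5 run 1 was again the lowest at 20.1%. E14.5 run 2 at 20.6% and E14.5 run 1 at 21.8% then lay below E13.5 run 1 at 22%. The commonest transcript of each of the 10 genes lies above the median GC of 49.1% of coding genes, from 49.8% for Gadd45a to 63.8% for Btbd17.

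From E13.5, most Neurog3-only cells had most of the 10 genes switched on together. A median of 8 of the 10 was at 10 FPKM or more in Neurog3-only cells, against 6 in cells with Neurog3 and Fev, 5 in cells with Neurog3 and a hormone, 3 in Fev-only cells and 2 in hormone cells. At least 8 of the 10 were on in 106 of 163 Neurog3-only cells (65%), in 0 of 60 Fev-only cells, which allows up to 5.96% (Clopper-Pearson), and in 1 of 118 hormone cells (0.847%). A gene at 10 FPKM or more is called on here. The early cells differed: the median was 4.5 of the 10 in the 6 Neurog3-only cells of E11.5, of which 1 had 8 or more on, and 2 in the 7 of E12.5, of which 0 had 8 or more on. In each of the 6 later sets the median was 8 to 9. Averaged over sets, Neurog3-only cells had 6.68 ± 2.27 of the genes on and hormone cells 2.41 ± 0.60 (SD over 8 sets each). Without E12.5 run 1 and E13.5 run 1, the sets with the lowest share of GC-rich genes among detected genes, the Neurog3-only average was 7.36. All 10 genes lie in this direction by selection, but they differed in how low they were in cells with Fev.

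**Figure D1:**
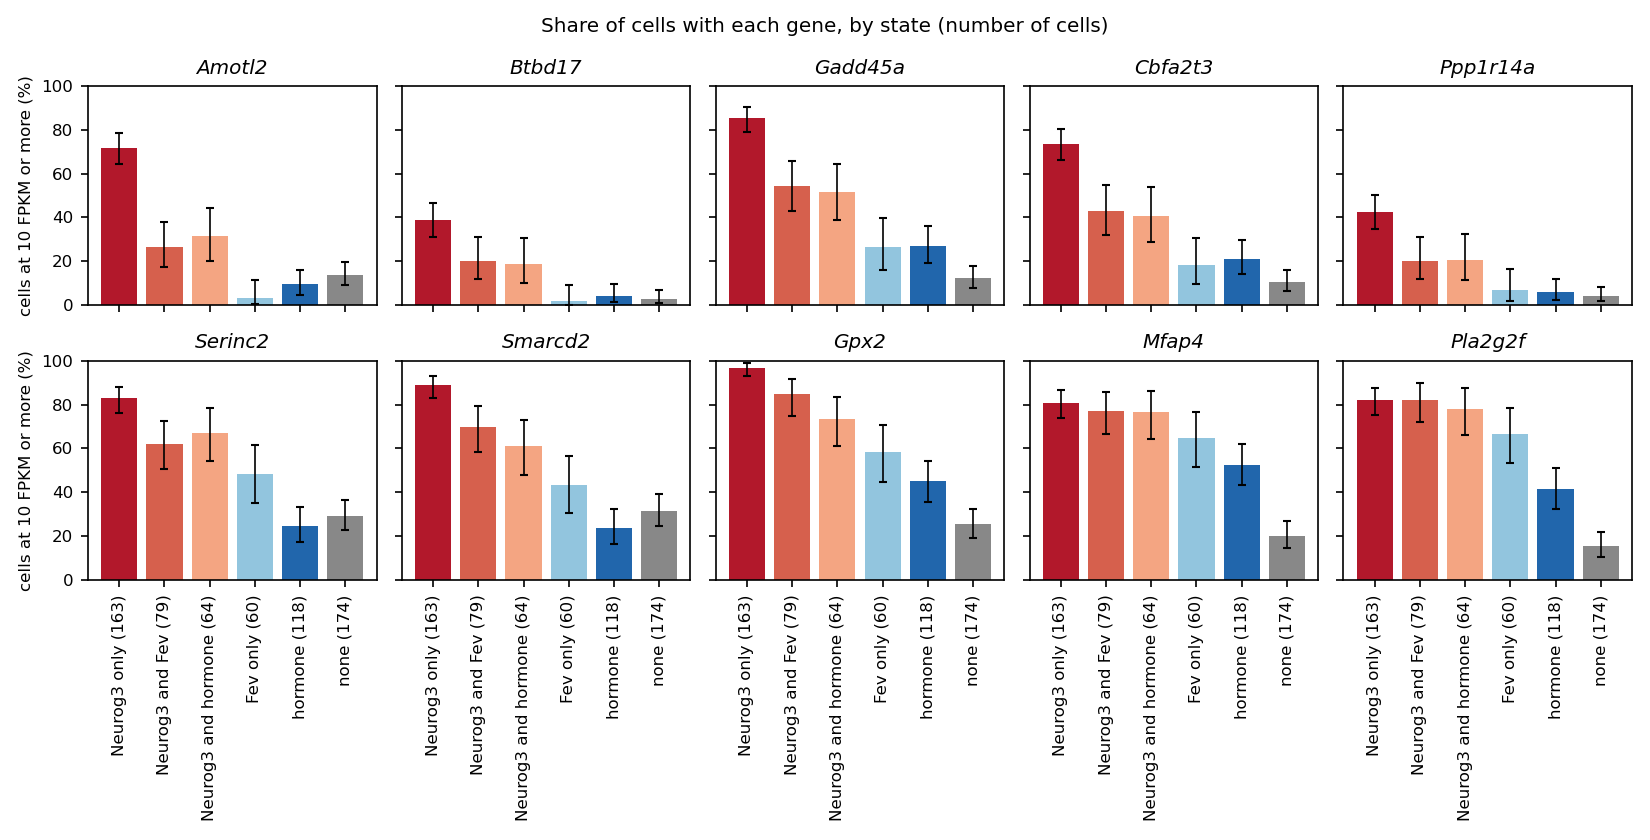
Share of cells at 10 FPKM or more (y axis, %) for each of the 10 genes in 6 states (x axis, number of cells in brackets); bars are shares over all kept cells of the state and error bars are 95% Clopper-Pearson intervals (counting error alone). Amotl2 stood at 71.8% in Neurog3-only cells against 3.33% in Fev-only cells, while Pla2g2f stood at 82.2% against 66.7%.

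The nuclear regulators come first. Gadd45a encodes a stress-induced protein that restrains the cell cycle and takes part in DNA repair, and p53 can switch it on. It lies on GRCm38 at chr6:67035096-67037457 on the minus strand, and its exons overlap E230016M11Rik on the plus strand, whose reads cannot be told apart from its own in libraries that do not mark the strand. Set means in Neurog3-only cells had a lowest value of 3.57 FPKM (E12.5 run 1), a median of 244 FPKM and a highest value of 540 FPKM (E15.5 run 2). Set means in hormone cells had a lowest value of 1.33 FPKM, a median of 15.7 FPKM and a highest value of 31.9 FPKM. Only the E12.5 set of Neurog3-only cells lay within the range of the hormone cells. The difference was 4.28 ± 1.28 on the log2(FPKM + 1) scale from Fev-only cells (SD, 6 sets) and 3.62 ± 1.46 from hormone cells (SD, 8 sets). Gadd45a was on in 85.3% of Neurog3-only cells (78.9% to 90.3%, Clopper-Pearson), 54.4% of cells with Neurog3 and Fev, 26.7% of Fev-only cells and 27.1% of hormone cells.

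Cbfa2t3 encodes a corepressor of the ETO family, which bridges DNA-bound factors and histone deacetylases. It spans chr8:122625141-122699109 on the minus strand, with an exon overlap with Gm10612 on the plus strand. Its set means in Neurog3-only cells ran from 1.82 FPKM (E12.5 run 1) through a median of 39 FPKM to 58.8 FPKM (E15.5 run 2). In hormone cells they ran from 1.83 FPKM through a median of 4.49 FPKM to 14 FPKM. The E12.5 set of Neurog3-only cells, at 1.82 FPKM, lay just below the lowest hormone set, the E11.5 set, at 10.6 FPKM, lay within the hormone range, and the 6 later sets lay above it. The difference from Fev-only cells was 2.55 ± 0.37 on the log2 scale (SD, 6 sets), the most even across sets of the 10 genes together with Pla2g2f, whose SD was also 0.37.

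Smarcd2 encodes a subunit of the SWI/SNF complex, which moves nucleosomes. It lies at chr11:106263179-106272972 on the minus strand with no exon overlap. It was on in 145 of 163 Neurog3-only cells (89%), 69.6% of cells with Neurog3 and Fev, 43.3% of Fev-only cells and 23.7% of hormone cells. Set means in Neurog3-only cells ran from 11 FPKM (E12.5 run 1) through a median of 297 FPKM to 687 FPKM (E13.5 run 1), against 2.06, 17.1 and 84.8 FPKM for the lowest, median and highest set of hormone cells. Apart from E12.5 run 1, each set mean of Neurog3-only cells lay above every set mean of hormone cells. Single cells weigh on this: the E11.5 mean of 106 FPKM, over 6 cells, had a median of 33.5 and a highest cell of 503 FPKM. The highest hormone set, E15.5 run 1, held a cell at 1451 FPKM among its 25 and had a median of 0.747 FPKM. Smarcd2 was also on in 55 of 174 cells with none of Neurog3, Fev or hormone (31.6%), more than any of the other 9 genes in this pool. Of these 174 cells, 57 were of E11.5 and 74 of E12.5, and the order differed later. From E13.5, 24 cells had neither Fev nor a hormone and Neurog3 under 1 FPKM. Smarcd2 was on in 8 of them, Mfap4 in 12, and Gpx2, Pla2g2f and Serinc2 in 13 each.

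Btbd17, at chr11:114791217-114795945 on the minus strand, encodes a BTB domain protein. It was the lowest of the 10 genes, with set means in Neurog3-only cells of 0.170 FPKM (E12.5 run 1) at the lowest, 12.8 FPKM at the median and 19.5 FPKM (E14.5 run 2) at the highest. Hormone cells had a lowest set mean of 0, a median of 0.615 FPKM and a highest value of 4.72 FPKM. It was on in 63 of 163 Neurog3-only cells (38.7%) and in 1 of 60 Fev-only cells (1.67%, 0.0422% to 8.94%). At this level many cells may hold transcripts below the threshold, so a cell without a call is not shown to lack the gene.

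The genes Amotl2 and Ppp1r14a, both of the actin cytoskeleton, were already on in few of the cells that had Fev when all sets were pooled. The same held for Btbd17, on in 20.3% of cells with Neurog3 and Fev. Amotl2 encodes an angiomotin that sits at cell junctions and binds the Hippo pathway coactivator Yap. It lies at chr9:102716672-102733418 on the plus strand. Its set means in Neurog3-only cells ran from 0.459 FPKM (E12.5 run 1) through a median of 73.3 FPKM to 120 FPKM (E15.5 run 2), against 0, 0.505 and 4.47 FPKM for the lowest, median and highest set of Fev-only cells. All 6 sets from E13.5 lay above every Fev-only set. The difference of 5.51 ± 1.04 on the log2 scale from Fev-only cells (SD, 6 sets) was the largest of the 10 genes. Amotl2 was on in 71.8% of Neurog3-only cells, in 26.6% of cells with Neurog3 and Fev and in 3.33% of Fev-only cells (0.406% to 11.53%). Fev-only minus hormone cells gave -2.14 ± 1.08 on the log2 scale, with Fev-only cells the lower in 6 of 6 sets, but few hormone cells carry these means. Amotl2 was on in 9.32% of hormone cells (4.75% to 16.1%), an interval that overlaps that of Fev-only cells, its median was 0 in each hormone set, and 1 hormone cell of E14.5 run 1 stood at 311 FPKM where the mean of its 18 cells was 18.3 FPKM.

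Ppp1r14a encodes an inhibitor of myosin light chain phosphatase, known best from smooth muscle, and lies at chr7:29289308-29293801 on the plus strand. It was on in 69 of 163 Neurog3-only cells (42.3%), 20.3% of cells with Neurog3 and Fev, 6.67% of Fev-only cells and 5.93% of hormone cells. The pooled share of cells with Neurog3 and Fev hides a difference between sets. At E13.5 in run 2, Ppp1r14a was on in 11 of 18 of these cells and in 23 of 28 Neurog3-only cells. In the other sets with at least 5 cells with Neurog3 and Fev, it was on in 0% to 20% of them. Its set means in Neurog3-only cells were the most uneven: 0 at E11.5, 0 at E12.5, 99.5 FPKM at E13.5 in run 2 against 3.18 FPKM in run 1, 28.4 FPKM at E14.5 in run 2 against 5.50 FPKM in run 1, and 51.4 FPKM at E15.5 in run 2 against 84.6 FPKM in run 1. At E13.5 and E14.5 the ratio between the runs was thus wider than that between any days within run 2. Its transcript has a GC content of 61.7% and was low in E12.5 run 1 and E13.5 run 1, where GC-rich genes were least detected, but also in E14.5 run 1; the part of GC content in this was not tested. It was 1 of 4 genes that were not higher in Neurog3-only cells than in hormone cells in every set, with 6 of 8 sets higher.

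The genes for secreted proteins, Mfap4 and Pla2g2f, were on in most cells of every state with Neurog3 or Fev, as was Gpx2 (below). Mfap4 encodes a glycoprotein of extracellular microfibrils, and Pla2g2f a secreted phospholipase A2. Mfap4 lies at chr11:61485431-61488900 on the plus strand and overlaps exons of Mapk7 on the minus strand, and Pla2g2f lies at chr4:138750533-138757626 on the minus strand. Pla2g2f was on in 82.2% of Neurog3-only cells, 82.3% of cells with Neurog3 and Fev, 78.1% of cells with Neurog3 and a hormone, 66.7% of Fev-only cells and 41.5% of hormone cells. Mfap4 was on in 81%, 77.2%, 76.6%, 65% and 52.5% of the cells of these same states. Within sets, Neurog3-only minus Neurog3 and Fev cells gave 0.29 ± 0.78 for Pla2g2f and 0.46 ± 0.56 for Mfap4 on the log2 scale (SD, 6 sets), higher in 5 of 6 sets for both, and the SD exceeds the difference.

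Set means of Pla2g2f in Neurog3-only cells ran from 0 (E12.5 run 1) through a median of 229 FPKM to 741 FPKM (E13.5 run 1), against 94.5, 134 and 278.7 FPKM for the lowest, median and highest set of Fev-only cells. Set means of Mfap4 in Neurog3-only cells ran from 3.45 FPKM (E11.5 run 1) through a median of 465 FPKM to 1643 FPKM (E13.5 run 1), against 84.3, 186 and 567.8 FPKM in Fev-only cells. The ranges of the states overlap for both genes. Within sets, Neurog3-only minus Fev-only cells gave 1.00 ± 0.37 for Pla2g2f and 1.57 ± 0.90 for Mfap4 on the log2 scale (SD, 6 sets). Against hormone cells the values were 1.11 ± 3.15 for Pla2g2f and 0.45 ± 2.01 for Mfap4 (SD, 8 sets), and the SD exceeds the difference for both. Without E12.5 run 1 and E13.5 run 1, Pla2g2f stood at 2.13 ± 1.36 and Mfap4 at 0.77 ± 2.11 (SD, 6 sets).

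Mfap4 is best known from mesenchyme, so mesenchymal markers were read in the same cells. None of the 7 markers (Col1a1, Col1a2, Col3a1, Dcn, Lum, Pdgfra and Pdgfrb) was at 10 FPKM or more in 155 of the 163 Neurog3-only cells, and Mfap4 was on in 127 of these 155 with a mean of 685 FPKM. Of the 8 cells with a mesenchymal marker, 5 had Mfap4 on. Col1a1 and Pdgfra reached 10 FPKM in 0 of the 163 cells.

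Gpx2 and Serinc2, for an antioxidant enzyme and a membrane protein, were on in a smaller share of Fev-only cells than of the states with Neurog3, and in a smaller share again of hormone cells. Gpx2 encodes a glutathione peroxidase of the gut epithelium that reduces hydrogen peroxide, and lies at chr12:76792333-76795554 on the minus strand. It was the most widespread of the 10, on in 158 of 163 Neurog3-only cells (96.9%), 84.8% of cells with Neurog3 and Fev, 73.4% of cells with Neurog3 and a hormone, 58.3% of Fev-only cells and 44.9% of hormone cells. Set means in Neurog3-only cells ran from 82.5 FPKM (E11.5 run 1) through a median of 773 FPKM to 1447 FPKM (E13.5 run 1), against 0.519, 57 and 149 FPKM for the lowest, median and highest set of hormone cells. The sets at E11.5 and E12.5, at 82.5 and 88.2 FPKM, lay within the hormone range, and the 6 later sets lay above it. Its difference from hormone cells, 3.99 ± 1.19 on the log2 scale (SD, 8 sets), was the largest of the 10 genes.

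Serinc2 belongs to the serine incorporator family of membrane proteins and lies at chr4:130253495-130279205 on the minus strand. It was the most even of the 10 across sets of Neurog3-only cells, with a mean of 267 ± 82.6 FPKM (SD, 8 sets), a lowest set of 79.4 FPKM (E12.5 run 1), a median of 296 FPKM and a highest set of 331 FPKM (E14.5 run 1). Hormone cells averaged 24.4 ± 19.8 FPKM, with a highest set of 57 FPKM, so the set means of the states did not overlap. It was on in 82.8% of Neurog3-only cells, 62% of cells with Neurog3 and Fev, 67.2% of cells with Neurog3 and a hormone, 48.3% of Fev-only cells and 24.6% of hormone cells.

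All 10 genes were higher in Neurog3-only cells than in Fev-only cells in each of 6 sets, where 7.66% of 14849 genes were. Against cells with Neurog3 and Fev, 7 of 10 were higher in each of 6 sets, where 4.46% of 14833 genes were, and Gpx2, Mfap4 and Pla2g2f were higher in 5 of 6. Against hormone cells, 6 of 10 were higher in each of 8 sets, where 2.69% of 15489 genes were. These counts restate the selection and nothing is read from them. In Fev-only minus hormone cells, 3 of the 9 genes above the filter on low values (Serinc2, Pla2g2f and Gpx2, with Btbd17 under the filter) were higher in each of 6 sets, where 1.5% of 14679 genes were. Their values were 2.16 ± 1.38, 1.46 ± 1.02 and 1.24 ± 0.97 on the log2 scale (SD, 6 sets). The genes were selected on their loss with Fev and with hormones, so this count is not independent of the selection either, and nothing is read from it.

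The level of Neurog3 was then read in 5 bins over the 495 kept cells from E13.5. The median number of the 10 genes at 10 FPKM or more was 3 in 119 cells with Neurog3 under 1 FPKM, 3 in 88 cells at 1 to 10 FPKM, 4 in 53 cells at 10 to 100 FPKM, 6 in 116 cells at 100 to 1000 FPKM and 8 in 119 cells at 1000 FPKM or more. Amotl2 was on in 10.1%, 5.68%, 17%, 46.6% and 75.6% of cells in these bins. Gpx2 was on in 53.8%, 51.1%, 69.8%, 90.5% and 98.3%. Cbfa2t3 was on in 15.1%, 26.1%, 13.2%, 54.3% and 89.1%, so its lowest share was at 10 to 100 FPKM. Gpx2, Mfap4 and Pla2g2f were on in about as many cells as not even where Neurog3 was under 1 FPKM.

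Within a bin of Neurog3 level, cells with neither Fev nor a hormone were set beside cells with one of them, pooled over sets, as a description of genes selected on both measures. At 100 to 1000 FPKM of Neurog3, Amotl2 was on in 36 of 49 cells with neither (73.5%, 58.9% to 85.1%) and in 18 of 67 cells with Fev or a hormone (26.9%, 16.8% to 39.1%). Gadd45a was on in 41 of 49 cells with neither (83.7%) and in 34 of 67 cells with Fev or a hormone (50.7%). Pla2g2f was on in 41 of 49 cells with neither (83.7%) and in 56 of 67 cells with Fev or a hormone (83.6%), and Mfap4 in 83.7% and 82.1%. At 1000 FPKM or more, Amotl2 was on in 76 of 91 cells with neither (83.5%) and in 14 of 28 cells with Fev or a hormone, and Pla2g2f in 92.3% and 28 of 28. Cells of 1 bin can still differ in Neurog3 within it, by up to 10-fold at 100 to 1000 FPKM.

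**Figure D2:**
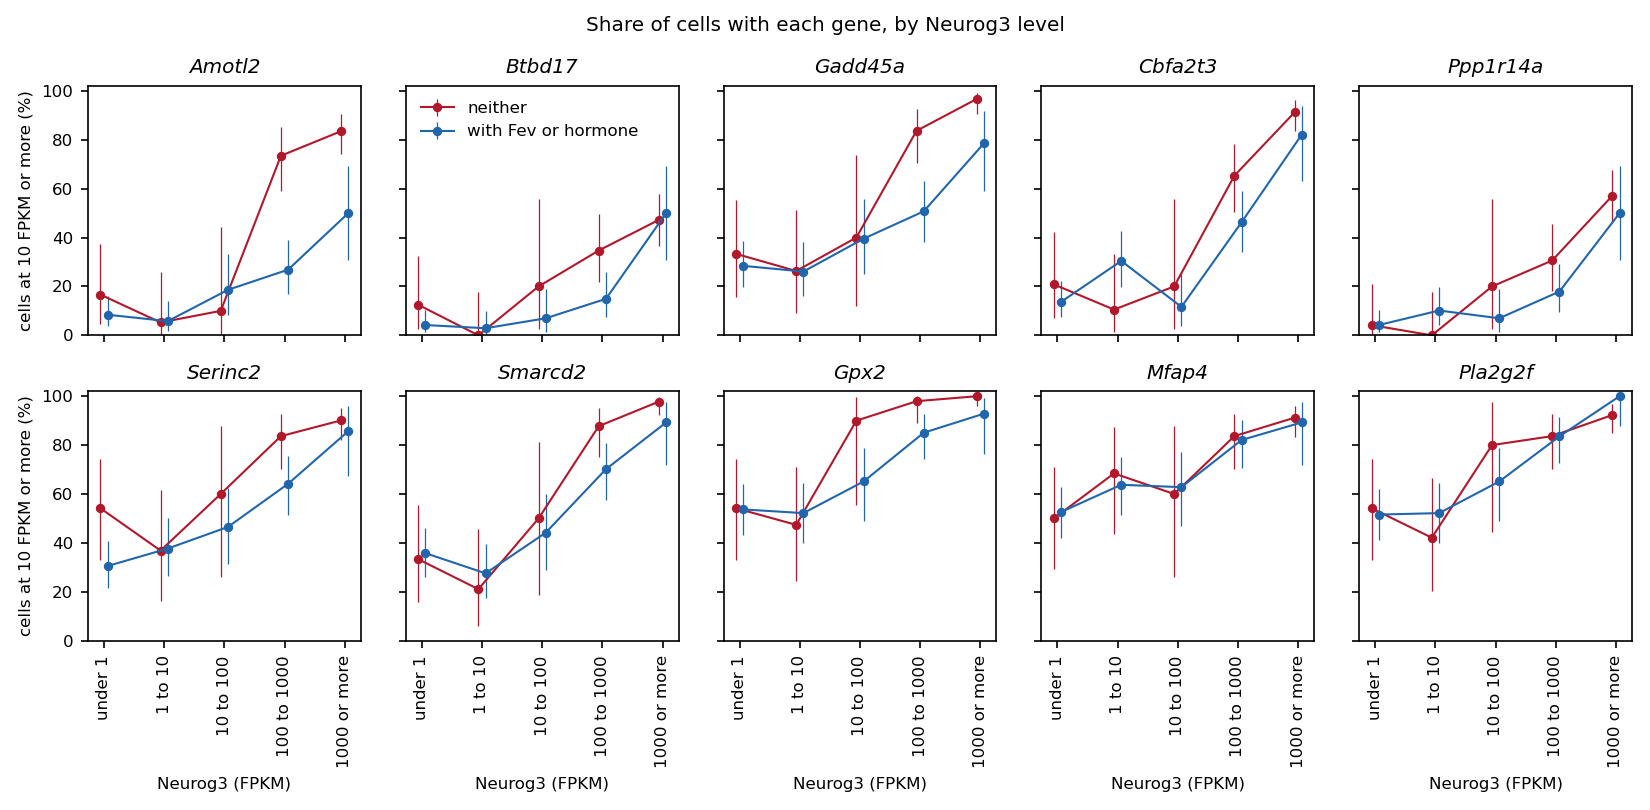
Share of kept cells from E13.5 at 10 FPKM or more (y axis, %) for each gene, by bin of Neurog3 level (x axis, FPKM), in cells with neither Fev nor a hormone (red) and in cells with Fev or a hormone (blue); lines are 95% Clopper-Pearson intervals. For Amotl2 the red and blue points part at 100 to 1000 FPKM (73.5% against 26.9%), and for Pla2g2f they coincide there (83.7% against 83.6%).

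Cell by cell, the correlation of log2(FPKM + 1) with Neurog3 was taken within each of the 6 sets from E13.5 and averaged, as a description over 495 cells that share libraries' depth and run. Among 7509 genes with a mean of at least 10 FPKM, Smarcd2 ranked 1st at 0.66, Amotl2 2nd at 0.62, Gadd45a 3rd at 0.62, Cbfa2t3 5th at 0.61 and Gpx2 6th at 0.61. Serinc2 ranked 19th at 0.54, Pla2g2f 30th at 0.51, Ppp1r14a 82nd at 0.43 and Mfap4 118th at 0.39. Btbd17, with a mean of 6.97 FPKM, was under the filter and had a value of 0.52. The correlation with Fev ran the other way for each of the 9 ranked genes, from -0.36 for Amotl2 to -0.05 for Pla2g2f. Since the 10 genes were selected for this pattern, their ranks describe the choice.

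Outside the 10, and leaving out predicted genes and genes with a Rik or Gm name, the 8 genes most like Neurog3 by this measure held ranks from 4 to 15. They were Stmn1 (0.61, a microtubule-destabilising protein), Mfng (0.59, a fringe glycosyltransferase that modifies Notch), Insig1 (0.58, a brake on sterol synthesis), Prom1 (0.58), Sox4 (0.57, a transcription factor), Btg2 (0.56, an antiproliferative p53 target), Sparc (0.56) and H19 (0.55). Stmn1 ranked between Gadd45a and Cbfa2t3.

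Among the 150 Neurog3-only cells from E13.5, with each set centred, the 45 pairs of the 10 genes had a mean correlation of 0.33. The highest was 0.61 between Gadd45a and Cbfa2t3, followed by 0.58 between Gadd45a and Amotl2 and 0.54 between Gadd45a and Smarcd2, and the lowest was 0.09 between Amotl2 and Pla2g2f. Within these cells the correlation with Neurog3 itself ran from 0.28 for Ppp1r14a and 0.29 for Btbd17 to 0.61 for Cbfa2t3 and Smarcd2 and 0.62 for Gadd45a. Gadd45a was in each of the 3 highest pairs. Amotl2 with Cbfa2t3 stood at 0.38, below Gadd45a with Gpx2 at 0.49 and Gpx2 with Serinc2 at 0.44.

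Day was tested within Neurog3-only cells, which holds Fev and the hormones low but not the level of Neurog3. Since the 10 genes were selected on that level, and Neurog3 varied between these sets, slopes in its direction are not independent of the selection. The question is whether a progenitor made late differs from one made early. All 10 genes passed the filter on low values, a mean of 1 FPKM over sets. All 10 slopes along day, with run as a covariate, were positive, but 0 of the 10 genes passed limma's test with Benjamini-Hochberg adjustment over all genes, as did 0 of 14789 genes (0%). The lowest adjusted p over all genes was 0.682, and 988 genes had an unadjusted p under 0.05, 6 of them among the 10. The steepest slopes were 1.48 ± 0.59 per day for Pla2g2f, 1.31 ± 0.55 for Mfap4 and 1.22 ± 0.36 for Ppp1r14a on the log2 scale (SE, 8 sets). Without E11.5 run 1 the slope of Mfap4 was 0.53, without E15.5 run 1 that of Ppp1r14a was 0.59, and without E12.5 run 1 that of Pla2g2f was 0.99. Gpx2 had the lowest unadjusted p of the 10, with a slope of 0.96 ± 0.25 and an adjusted p of 0.692 by limma, and Serinc2 had the smallest slope, 0.16 ± 0.20. The median slope was 0.77 over the 10 genes and 0.04 over all genes, and 56.5% of all genes had a positive slope. Neurog3 itself had a slope of 0.93 ± 0.31 with an adjusted p of 0.711 by limma.

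The E11.5 and E12.5 sets hold 6 and 7 cells. Within E13.5 to E15.5 alone, the slope was negative for 4 of the 10 genes, at -1.05 for Mfap4, -0.53 for Pla2g2f and -0.09 for both Smarcd2 and Serinc2. It was positive for the other 6, from 0.06 for Btbd17 to 0.67 for Gadd45a and 0.85 for Ppp1r14a. Without E12.5 run 1 alone, the slope was 0.17 for Gadd45a, 0.07 for Amotl2 and -0.0016 for Serinc2, against 0.60, 0.52 and 0.16 with it. Pla2g2f in Neurog3-only cells stood at 6.31 FPKM at E11.5, 0 at E12.5, 741 FPKM at E13.5 (run 1), 260 FPKM at E14.5 (run 1) and 254 FPKM at E15.5 (run 1). Mfap4 stood at 3.45, 17.1, 1643, 467 and 463 FPKM in these same sets. Both were thus highest at E13.5 in run 1 and low at both earlier days. Gadd45a and Amotl2 had another course in their means: at E11.5 they stood at 232 and 69.6 FPKM, near the later sets, and at E12.5 at 3.57 and 0.459 FPKM. The highest of the 6 cells at E11.5 stood at 1001 and 330 FPKM and weighs on these means, and the medians there were 100 and 24.7 FPKM. The lowest medians of the later sets were 61.1 FPKM for Gadd45a and 24 FPKM for Amotl2.

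**Figure D3:**
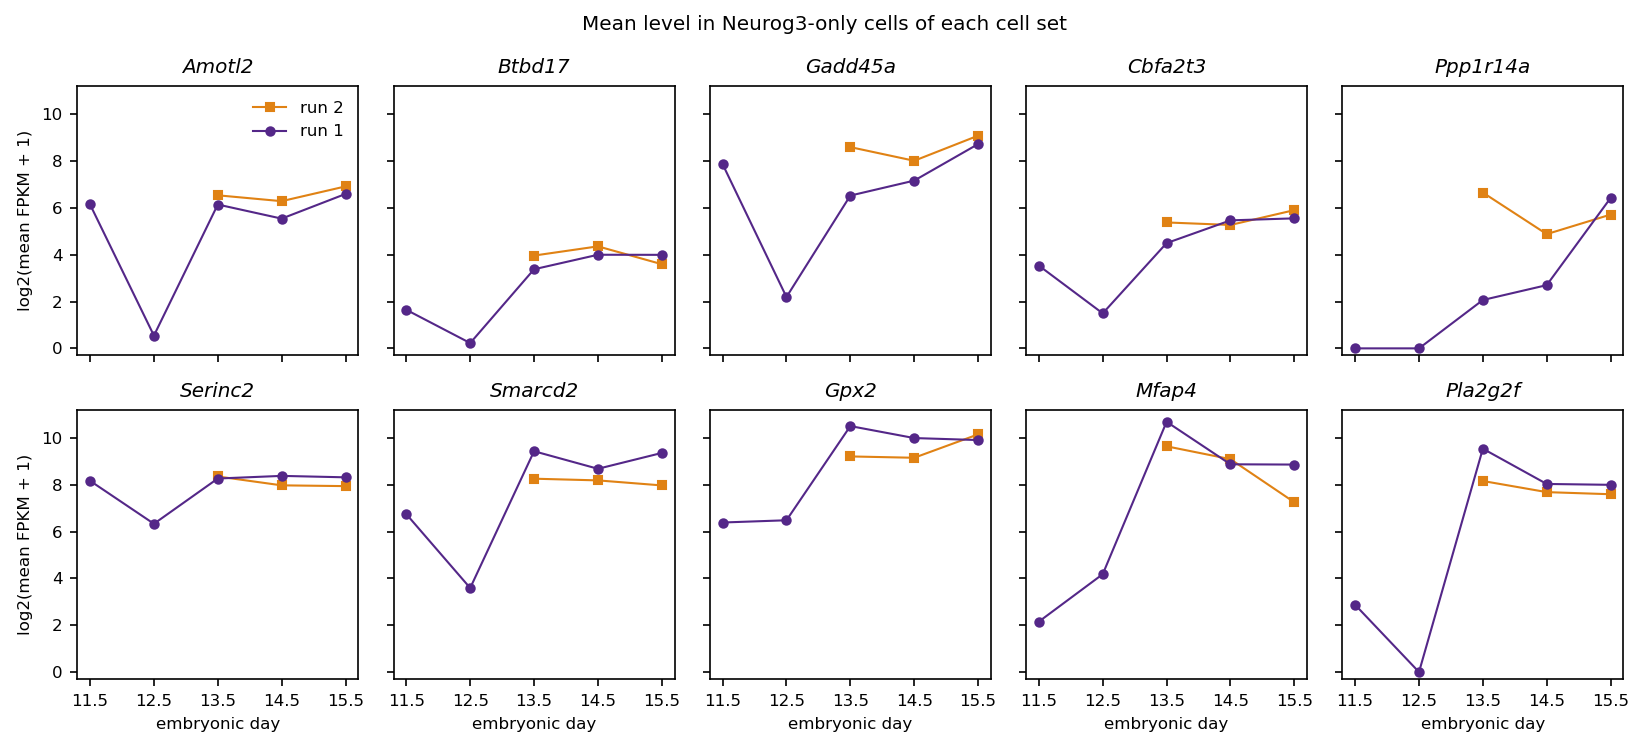
Mean level of each gene in Neurog3-only cells (y axis, log2 of mean FPKM + 1) by embryonic day (x axis), with run 2 as orange squares and run 1 as purple circles; each point is 1 set of 6 to 30 cells. Mfap4 and Pla2g2f are low at E11.5 and E12.5, Gadd45a and Amotl2 are low at E12.5 only, and Serinc2 stays near the same level from E13.5.

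Over all kept cells, whatever their state, 0 of 16154 genes (0%) passed limma's test of the slope along day, with a lowest adjusted p of 0.132 and 1914 genes at an unadjusted p under 0.05. The 10 genes had positive slopes with a median of 0.61, against 0.02 for all genes. Gpx2, with the steepest, had a slope of 0.94 ± 0.39 and an adjusted p of 0.394 by limma. Within E13.5 to E15.5 alone the slopes of 7 of the 10 genes were negative, and those of Gadd45a, Cbfa2t3 and Ppp1r14a stayed positive.

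The same days were sequenced in 2 runs, and the runs differed in what the libraries held: the median share of a cell's summed FPKM that went to predicted or small RNA genes was 35.8% to 40.5% in the run 2 sets and 7.31% to 17.9% in the run 1 sets. In Neurog3-only cells of E13.5 to E15.5, 27 of 14430 genes (0.187%) passed limma's test of run 2 minus run 1, 21 higher and 6 lower in run 2, and 0 of the 10 genes were among them. The count rests on all 6 sets, since it was 0 or 1 without any 1 of them. The 10 genes went both ways. Ppp1r14a was at 2.02 ± 0.93 with an adjusted p of 0.381, Gadd45a at 1.09 ± 0.40 with an adjusted p of 0.304, and Smarcd2 at -1.02 ± 0.31 with an adjusted p of 0.284 (log2 scale, SE, limma, 6 sets). Without either set of E13.5, Ppp1r14a stood at 0.73 and Gadd45a at 0.60, and without either set of E15.5 at 3.38 and 1.46. The median over all genes was -0.27, so the values are best read against it, and it moved to 0.24 when FPKM was rescaled to genes that are neither predicted nor small RNA genes. Serinc2 stood at -0.23 before that rescaling and at 0.34 after it, just above the median of all genes both times, and the other 9 genes kept their sign.

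**Figure D4:**
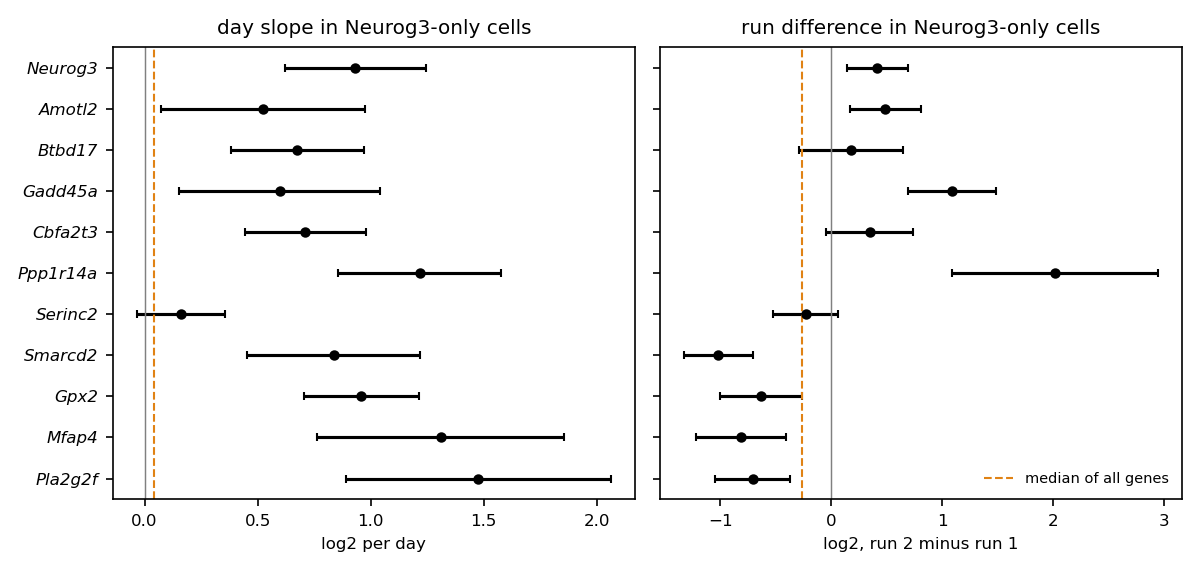
Estimates in Neurog3-only cells for Neurog3 and the 10 genes: slope along day (left panel, log2 per day, 8 sets) and run 2 minus run 1 (right panel, log2, 6 sets), as points with bars of 1 SE; the dashed line is the median of all genes. All points lie above 0 in the left panel, while in the right panel Ppp1r14a lies at 2.02 and Smarcd2 at -1.02, and no gene passed the adjusted threshold in either.

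Other genes of the same pathways were read from lists, all with 0 genes past the test. In the slope along day within Neurog3-only cells, 18 of 21 genes of the Neurog3 programme were positive, with a median of 0.52 against 0.04 for all genes. That list includes Neurod1, Insm1 and Pax4, whose own slopes are not given. Growth arrest and p53 target genes were positive in 8 of 12 (median 0.12), family members of the 10 genes in 16 of 26 (median 0.11), other SWI/SNF subunits in 9 of 13 (median 0.07), and angiomotin partners and Yap targets in 2 of 9 (median -0.16). Of all genes, 56.5% had a positive slope, and differences between the lists were not tested.

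SMART-seq covers whole transcripts, so the deposited isoform estimates were used to ask which start each gene used. Isoform shares are Cufflinks' estimates and carry its error. In Neurog3-only cells, Smarcd2-203 took 98.8% of Smarcd2's FPKM, and it starts 5173 bases inside the gene from the start of Smarcd2-201. Amotl2-203 took 75.4% of Amotl2's FPKM, Serinc2-201 87.6% of Serinc2's and Mfap4-202 94% of Mfap4's. Gadd45a, Ppp1r14a, Gpx2 and Pla2g2f had 1 isoform each. The RefSeq starts printed above for Smarcd2 and Amotl2 lie more than 100 bases from the start of these commonest isoforms, and the other 4 printed starts lie within 100 bases.

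Cbfa2t3 used its starts in different shares in the pooled states. Cbfa2t3-203 starts 20934 to 21037 bases upstream of the other 3 isoforms, at the promoter printed above with 4 E-boxes. It took 93.5% of Cbfa2t3's FPKM in the 120 Neurog3-only cells with Cbfa2t3 at 10 FPKM or more, 85.2% in 34 cells with Neurog3 and Fev and 92.5% in 26 cells with Neurog3 and a hormone. It took 54.2% in 11 Fev-only cells, 61.4% in 25 hormone cells and 54.9% in 18 cells with none. It was the highest isoform in 112 of the 120 Neurog3-only cells and in 16 of the 25 hormone cells. This pattern was noticed after the values were seen and was not tested. Single sets did not all follow it: at E15.5 in run 2 the upstream share was 66.2% in 3 cells with Neurog3 and a hormone and 78.5% in 12 hormone cells, and at E14.5 in run 1 it was 64.5% in 7 cells with Neurog3 and Fev and 65.1% in 3 Fev-only cells. In Neurog3-only cells it was 82.8% to 96.8% in each of 6 sets.

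Level and upstream share did not go together in every state. Fev-only cells, with an upstream share of 54.2%, had a median Cbfa2t3 level of 28.6 FPKM. Cells with Neurog3 and a hormone, with a share of 92.5%, had a median of 25.7 FPKM. The median was 39.1 FPKM in these Neurog3-only cells and 19.6 FPKM in these hormone cells, so levels were matched. At 10 to 30 FPKM the upstream share was 92.7% in 40 Neurog3-only cells and 69.9% in 18 hormone cells, but 100% in 6 Fev-only cells. At 30 FPKM or more it was 93.6% in 80 Neurog3-only cells, 30.02% in 5 Fev-only cells and 54.1% in 7 hormone cells. With 5 to 7 cells in these last groups, the Fev-only values have little weight.

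**Figure D5:**
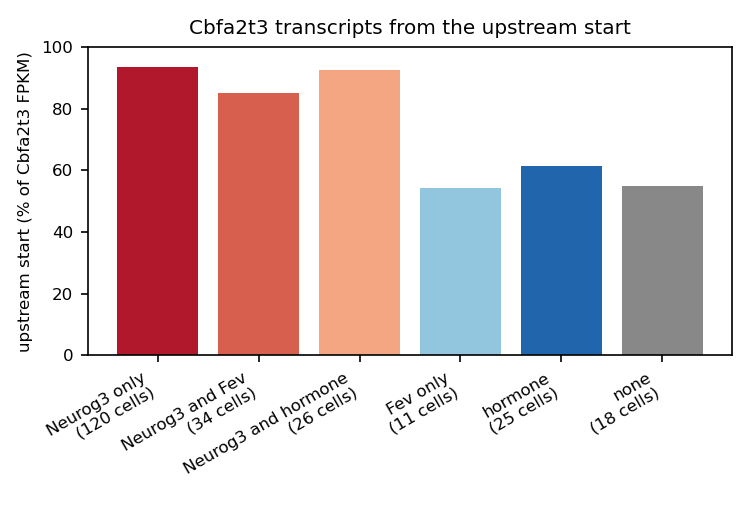
Share of Cbfa2t3 FPKM assigned to the upstream start (y axis, %) in each state (x axis, number of cells with Cbfa2t3 at 10 FPKM or more in brackets), pooled over cells with no error bar. The 3 states with Neurog3 stand at 85.2% to 93.5% and the 3 without it at 54.2% to 61.4%.

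The 10 genes were also read in cells of other kinds at E11.5 and E12.5 that had none of Neurog3, Fev or hormone. Of 40 cells with 3 or more leukocyte markers, 0 had Gadd45a, Gpx2, Btbd17 or Pla2g2f on, which allows up to 8.81% (Clopper-Pearson), and 9 had Smarcd2 on. Of 40 cells with duct or trunk markers, 21 had Smarcd2 on, 20 had Serinc2, 16 had Gpx2 and 7 had Amotl2. Of 13 cells with endothelial markers, 5 had Amotl2 on. Of 42 cells with acinar or tip markers, 21 had Smarcd2 on, 14 had Serinc2 and 8 had Gpx2. Smarcd2, Serinc2 and Gpx2 were thus on in a part of the epithelial cells with Neurog3 under 10 FPKM. Btbd17 was on in 0 of 40 duct or trunk cells, with the same upper limit of 8.81%.

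Within the Neurog3-only cells, 18 of 163 were cycling, with 3 or more of 10 cell cycle genes, such as Mki67 and Top2a, at 10 FPKM or more. From E13.5, 12 cycling cells and 138 others were compared as values, since no set had 5 cells of both kinds. Gadd45a was on in 83.3% of the cycling cells and 89.1% of the others, and Amotl2 in 75% and 75.4%. Btbd17 was on in 25% and 42.8%, Ppp1r14a in 25% and 47.8%, and Cbfa2t3 in 58.3% and 79.7%. The cycling cells had a median depth of 462414 fragments and the others 622908, and their median Neurog3 levels were 726 and 1396 FPKM; the part of either in these shares was not tested. In hormone cells without Neurog3, Gpx2 was on in 23 of 41 insulin cells (56.1%) and 11 of 38 glucagon cells (28.9%), Mfap4 in 34.1% and 55.3%, and Btbd17 in 0 of 41 and 0 of 38, which allows up to 8.60% and 9.25% (Clopper-Pearson). These shares are pooled over sets, and the 2 kinds came in different shares from the days. The E13.5 sets held 0 insulin cells, and 3 and 5 glucagon cells in runs 1 and 2. E15.5 run 1 held 13 insulin and 2 glucagon cells. The part of day in these shares was not tested. Only 1 set held 5 cells of both hormone kinds, so no test was made.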

How the data were processed

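Single cells were the samples, each sequenced as SMART-seq cDNA. The authors deposited FPKM values per gene and per isoform and cell. The submitters' processing notes name Cufflinks 2.2.0, TopHat2 2.0.13 and build mm10, with no roles; which annotation served is not stated there. FPKM carries the authors' scaling by length and depth, without molecular identifiers. Of the 32913 entries, 107 were spike-ins, vector or reporter, and 0 columns were left unmatched to cells.

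The 10 genes and all gene lists were chosen with earlier results of these data known. Named genes were the 10, Neurog3, Fev and the 8 others most correlated with Neurog3; of lists, only genes past a test would be named as results. Cells are not replicates and the labels name no animals, so the unit was a set of cells of 1 day and run with at least 5 cells, and p-values measure the spread between sets. limma 3.58.1 (R 4.3.3, trend) was fitted to log2(mean FPKM + 1) of every gene with a mean of 1 FPKM or more, with Benjamini-Hochberg adjustment, two-sided, at 0.05; low genes are understated on this scale. The fits were tested on simulated data. Differences between states are means of within-set log2 differences, and shares carry 95% Clopper-Pearson intervals. Coordinates and GC content came from GENCODE vM21 on GRCm38, promoters from RefSeq on GRCm38.p6, and 53154 of 54727 isoform IDs were matched. Python 3.11.15 was used for the rest. Settings varied were the pseudocount, filter, averaging, cell minimum, scaling, weights, thresholds, days and sets.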

Additional observations from a re-analysis of the deposited data

Results flagged for a closer look

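In each of the 10 genes, the 8 set means of Neurog3-only cells, as log2(FPKM + 1), were searched for a set whose gap to its nearest neighbour exceeded Dixon's critical value for 8 values, 0.526 of the range. Chance flags about 1 group in 20, and 10 groups were examined. The groups hold the same 8 sets of cells in genes selected to go with Neurog3, so they are not independent. The number flagged can therefore not be set against that rate. In 4 genes the set E12.5 run 1, with 7 cells, lay that far below the rest on the log2 scale; the levels below are in FPKM. Gadd45a stood at 3.57 FPKM there, with the next lowest set at 90.9 FPKM. Amotl2 stood at 0.459 FPKM, with the next lowest at 45.5 FPKM. Smarcd2 stood at 11 FPKM, with the next lowest at 106 FPKM, and Serinc2 at 79.4 FPKM, with the next lowest at 244 FPKM. In the same 7 cells Neurog3 averaged 46.5 FPKM, 5 were cycling and 3 had acinar or tip markers; the part of these in the low values was not tested.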

How the results depend on the processing

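The number of genes past limma's adjusted threshold was small in each comparison and moved with the setting. For the slope along day over all kept cells, leaving out 1 set at a time gave 0 to 1 genes against 0, with 1 without E11.5 run 1. For the slope in Neurog3-only cells, the count was 2 without E12.5 run 1 and E13.5 run 1, and 0 in each setting that left out 1 set. For run 2 minus run 1 the count of 27 became 1 with a pseudocount of 10 FPKM, 16 with no filter on low values, 168 with the mean over cells of log2(FPKM + 1), 33 with rescaled FPKM and 0 without E12.5 run 1 and E13.5 run 1. Leaving out 1 set at a time gave 0 to 1 genes, and each of the 6 sets did so. Under these settings 0 of the 10 genes were called in any comparison, and the lowest adjusted p of any of them was 0.0532, for Ppp1r14a between runs. The cause of these moves was not tested, except that the settings without a set hold fewer samples.

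Without 2 cells of E14.5, 1 of each run, whose profiles had a correlation of 0.852 against 0.720 for the next pair, calls stayed the same; this setting and the state averages without E12.5 run 1 and E13.5 run 1 were chosen after seeing the data. The cycling and the insulin against glucagon comparisons were not run, because 0 and 1 sets held 5 cells of both kinds. By replicate number no paired analysis was possible because these numbers only name cells; the runs were compared with day as a term and the states within sets. Depth limits calls of low genes such as Btbd17, and with 6 to 8 sets a slope has a wide error.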
